A study of Neurospora crassa with 6 samples.

Results

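The genes described here are those that the deposited expression table of Neurospora crassa assigns to the synthesis of amino acids or to the charging of transfer RNA. They were taken from the pathway column of the table as all entries carrying at least 1 of 6 KEGG maps (cysteine and methionine metabolism, synthesis of valine, leucine and isoleucine, lysine synthesis, histidine metabolism, synthesis of phenylalanine, tyrosine and tryptophan, and aminoacyl-tRNA biosynthesis) and none of 3 maps of central carbon metabolism. This rule gave 82 of 9872 entries, and the exclusion removed none of them. Each gene carried only 1 of the maps, which gave 18 genes for cysteine and methionine, 4 for the branched-chain amino acids, 6 for lysine, 5 for histidine, 13 for the aromatic amino acids and 36 for tRNA charging.

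RNA was sequenced from the Δmak-1 mutant, the Δmak-2 mutant and wild type, each at the protoperithecial stage (S) and at the vegetative stage (A), to ask how loss of either MAP kinase affects transcription while female structures begin to form. At S, mycelia were grown for 3.5 days at 25°C in the dark on cellophane over solid crossing medium with 0.1% sucrose. At A they came from liquid Vogel's medium, shaken for 22 h at 28°C, so that stage, medium, surface and temperature cannot be told apart. Each mutant is 1 deletion strain of the knockout collection, whole mycelium was harvested at both stages, and the RNA of 3 repeats was mixed into 1 library per condition. The study reports that on crossing medium both mutants made a few abnormal knots of hyphae instead of normal protoperithecia. For the mutants S therefore names the culture and not a structure formed.

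Fungi make all of the protein amino acids from simple precursors, and the enzymes of one pathway often sit in a line in which the product inhibits the first step. In N. crassa, shortage of a single amino acid raises the enzymes of many pathways together, a response called cross-pathway control that acts through the transcription factor CPC-1, the counterpart of yeast Gcn4. Aminoacyl-tRNA synthetases join each amino acid to its tRNA, and the cytosol and the mitochondrion need a charged set each. Methionine also feeds the methyl cycle, in which S-adenosylmethionine gives away its methyl group and the remaining homocysteine is recycled.

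The deposited unit is RPKM, a read count scaled to the length of the gene model and to the number of mapped reads of the library. Mapped reads, recovered from the steps between the values, ran between 2602076 and 3668046 per library. The median gene of the 82 had 207 reads in wild type at S and 95 reads in wild type at A. A gene is called raised in a comparison where the ratio of RPKM was above 2 and lowered where it was below 0.5, with RPKM above 10 in at least 1 of the 2 libraries, the thresholds of the study. Intervals given with a ratio are exact 95% intervals from the recovered reads and cover counting error only. With 1 library per condition there is no replicate check of any difference, and no p-values are given. A lower RPKM in such samples may mean fewer cells that express a gene or less RNA per cell, which cannot be told apart. In the Δmak-2 libraries mak-2 had 0 reads. mak-1 is listed in the table as NCU11376, an older locus tag of mak-1 (NCU09842) in RefSeq, and in the Δmak-1 libraries this entry kept 52 reads at S and 50 reads at A, or 6.08 and 6.39 RPKM, against 148 and 42.1 RPKM in wild type.

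Not every gene chosen by the pathway column is an enzyme of amino acid synthesis. tca-17 (NCU00720), which had the highest mean level of the 82 at 466 RPKM, has no molecular function in the table. dim-2 is a DNA methyltransferase, qa-2 is the catabolic dehydroquinase of quinate use, and NCU07082, placed under tRNA charging, has no molecular function. cyt-20, known as a valyl-tRNA synthetase gene, is listed with a splicing factor as its best database match. 3 genes were listed at 0 in all 6 libraries, namely trp-3 and NCU10283, both matched to tryptophan synthase, and NCU09892, matched to prolyl-tRNA synthetase. How reads that match more than 1 entry were counted is not given in the sources used here. Of the other genes, 79 had reads in every library and 72 passed 10 RPKM in at least 1 library. Of the 72, 46 were called in at least 1 of 7 comparisons and 26 in none. The same share over all genes was not computed, so these counts are not read as a trait of the genes described here. The 26 include cysteine synthase cys-17, homocitrate synthase lys-5, chorismate synthase aro-3, and trp-1, the trifunctional enzyme of tryptophan synthesis, which kept between 49.4 and 71.3 RPKM.

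In wild type at S against A, the raised genes included nic-7 and the adenosylhomocysteinase gene cys-18 of the cysteine and methionine map, leu-2 of leucine synthesis, the mitochondrial synthetase cyt-18 and the tyrosine-inhibited DAHP synthase aro-6, while the tryptophan-inhibited DAHP synthase aro-8, his-3 of histidine synthesis and the synthetase gene NCU00915 were lowered. Of 71 genes tested, 30 were raised and 4 were lowered, beside 46.5% raised and 10.3% lowered of the 6225 genes tested in the whole table. The median ratio was 1.64 for these genes and 1.86 for all genes, so that the typical gene of the table stood 0.90 higher at S on the log2 scale. The median of these genes relative to the median gene, which no scaling alters, was 0.881. By pathway this relative median was 1.37 for the branched-chain genes, with only 3 tested, leu-1, leu-2 and leu-4 of leucine synthesis. It was 1.16 for cysteine and methionine (16 tested), 1.02 for tRNA charging (32), 0.663 for lysine (6), 0.517 for the aromatic genes (9) and 0.436 for histidine (5). Other scalings between libraries change the split of calls. Scaling by the median of ratios gave 11 raised and 16 lowered, by the upper quartile 13 and 15, and by beta-tubulin 15 and 12. Under all 3 scalings 11 raised and all 4 lowered genes kept their call. The 11 are nic-7, NCU04657, aro-6, NCU06866, cyt-18, leu-2, cys-18, NCU07755, NCU02566, NCU00799 and NCU06914, and the 4 are NCU00915, aro-8, his-3 and NCU00147.

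**Figure D1:**
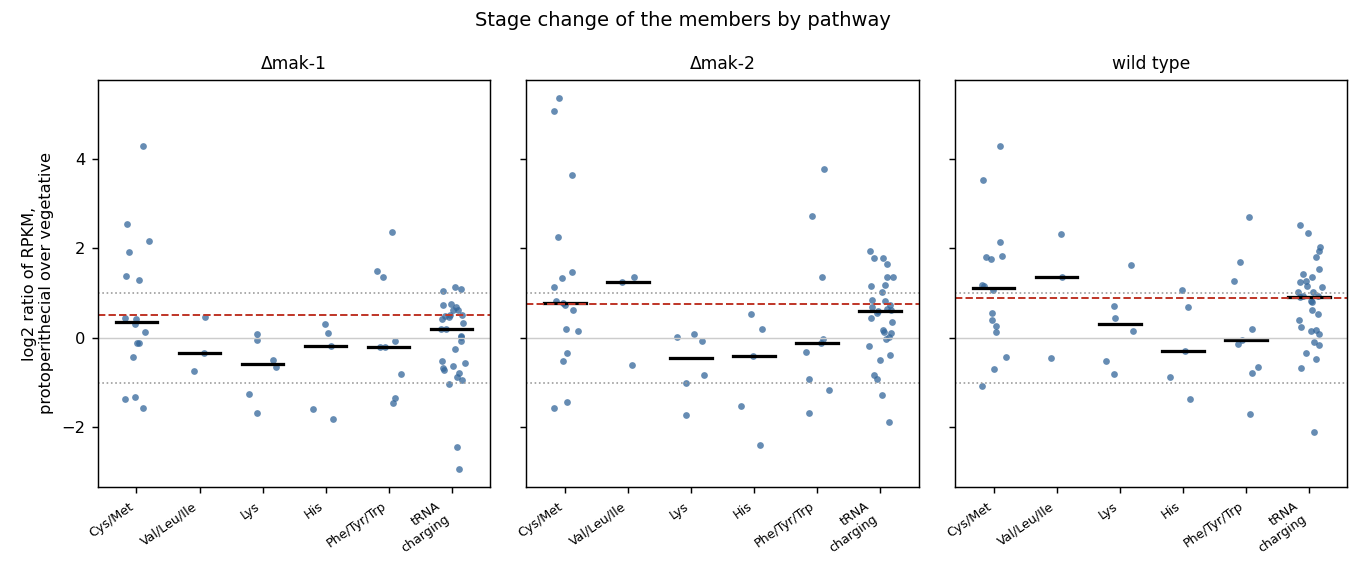
Log2 ratio of RPKM, protoperithecial over vegetative, for the tested genes of each pathway (points), with the pathway median (black bar), in Δmak-1 (left), Δmak-2 (middle) and wild type (right). The dashed red line is the median of all genes (0.51, 0.75 and 0.90), and the dotted lines mark the 2-fold thresholds. Cysteine and methionine genes span the widest range, while lysine, histidine and aromatic medians lie below the median of all genes in every strain.

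The gene with the largest ratio, nic-7, belongs to the cysteine and methionine map. In wild type 9 (56.25%) of 16 tested genes of this map were raised and 1 (6.25%) lowered, beside 46.5% and 10.3% of all genes. The median ratio of the 16 was 2.17, against 1.86 for all genes, and 4 of the 9 kept their call under all 3 scalings. nic-7 (NCU03963), annotated as the phosphorylase of methylthioadenosine, a by-product of polyamine synthesis from S-adenosylmethionine, had 159, 249 and 257 RPKM at S in Δmak-1, Δmak-2 and wild type, against 27.3, 19.96 and 13.2 RPKM at A. All 3 S libraries stood far above all 3 A libraries, and in wild type the ratio was 19.5 (interval 14.1 to 27.5). NCU04657, whose best match is aminocyclopropane carboxylate deaminase, had 135, 75.8 and 97.9 RPKM at S in Δmak-1, Δmak-2 and wild type and 6.89, 2.26 and 8.54 RPKM at A. Its ratio was 11.5 in wild type (7.58 to 18.1), and the lowest A value rests on 7 reads.

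Around the methyl cycle itself, eth-1, the S-adenosylmethionine synthetase, was raised 2.24-fold in wild type at S (2.03 to 2.49), a call lost under all 3 scalings. Its levels were 173, 202 and 200.2 RPKM at S in Δmak-1, Δmak-2 and wild type, against 130.2, 114 and 89.2 RPKM at A. cys-18 (NCU07930), the adenosylhomocysteinase that clears the product of methyl transfer, had 135, 226 and 407 RPKM at S in Δmak-1, Δmak-2 and wild type, and 146, 81.6 and 92.1 RPKM at A. The wild type ratio was 4.42 (3.997 to 4.89), and the Δmak-1 S library lay within the range of the A libraries. In contrast, met-5, the homoserine acetyltransferase that begins methionine synthesis from homoserine, had a wild type ratio of 1.095 (0.935 to 1.28). Cystathionine beta-synthase NCU08216 had a ratio of 0.741, and the cysteine synthases cys-12 and cys-17 had ratios of 2.09 and 1.32, of which only cys-12 passed the threshold. tca-17 had 666, 571 and 983 RPKM at S in Δmak-1, Δmak-2 and wild type, against 176, 119 and 281 RPKM at A, a wild type ratio of 3.49 (3.22 to 3.79). NCU00147 was the lowered gene, with 31.0 RPKM in wild type at S and 65.8 RPKM at A.

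**Figure D2:**
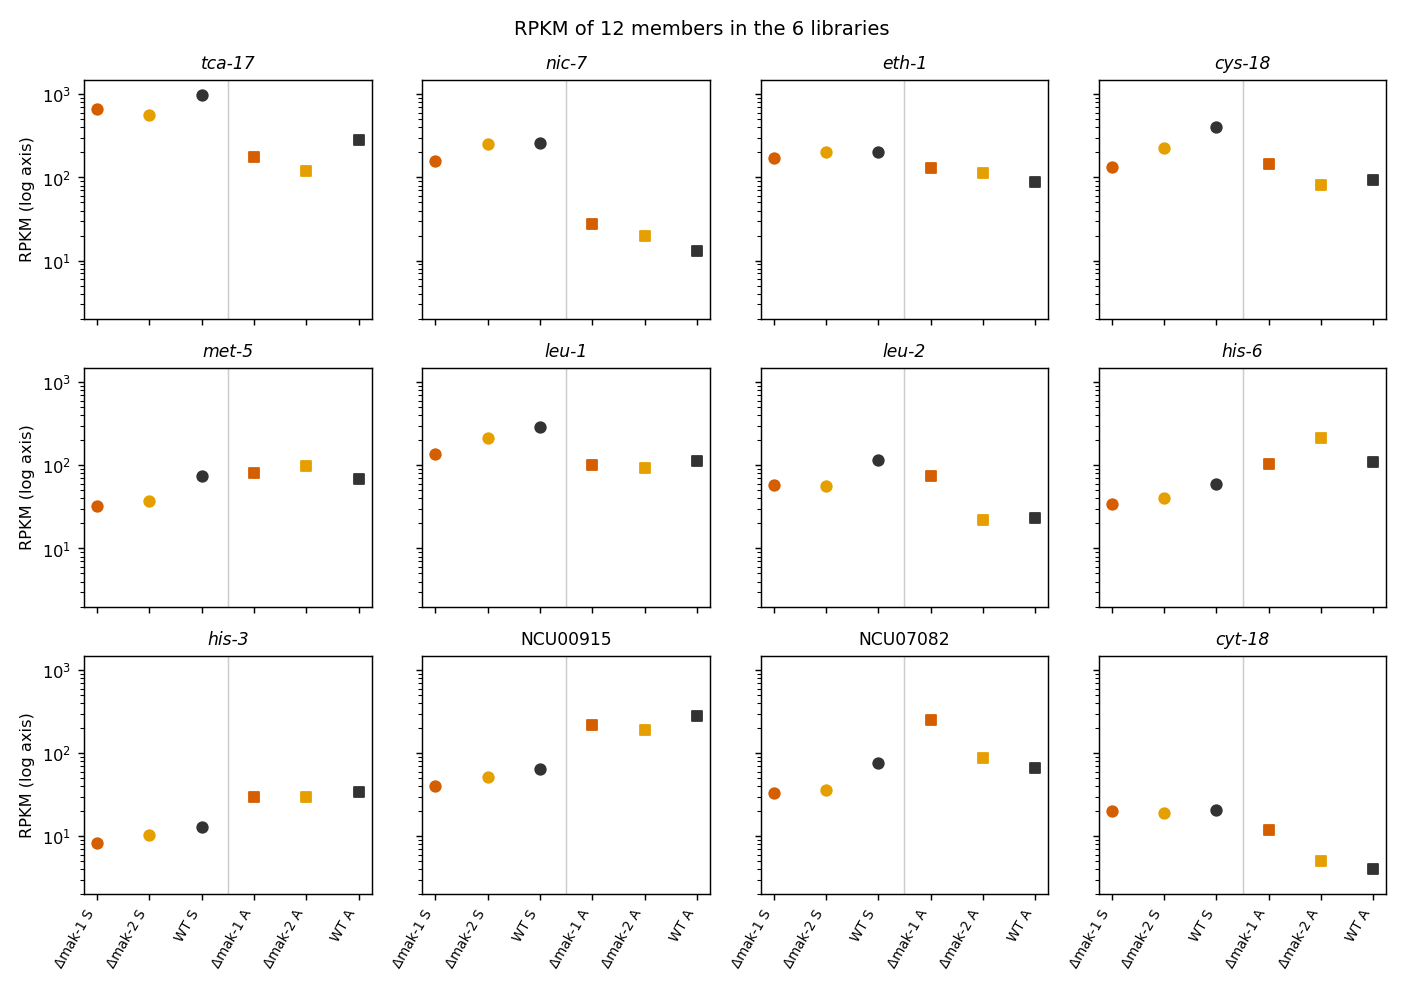
RPKM on a log axis of 12 genes in the 6 libraries, with protoperithecial libraries (S) as circles on the left and vegetative libraries (A) as squares on the right of each panel, in the order Δmak-1, Δmak-2, wild type. nic-7 reads 159 to 257 RPKM at S and 13.2 to 27.3 RPKM at A, while NCU00915 and his-3 show the opposite order of the stages in every strain.

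Leucine is made by 3 consecutive enzymes, and 2 of these were raised in wild type, where 46.5% of all genes were raised. leu-2, the isopropylmalate isomerase, had 58.7, 55.8 and 117 RPKM at S in Δmak-1, Δmak-2 and wild type, against 73.8, 21.8 and 23.3 RPKM at A. Its wild type ratio was 5.01 (3.89 to 6.53). leu-1, the isopropylmalate dehydrogenase, had 139, 216 and 289 RPKM at S in Δmak-1, Δmak-2 and wild type and 101, 91.7 and 113 RPKM at A, with a wild type ratio of 2.55 (2.25 to 2.90). The call of leu-2 was kept and that of leu-1 lost under all 3 scalings. The first enzyme of the branch, isopropylmalate synthase leu-4, stood between 14.9 and 17.9 RPKM at S and between 20.2 and 27.4 RPKM at A, and its wild type ratio of 0.737 did not pass the threshold. NCU11384, matched to threonine dehydratase, had at most 0.787 RPKM.

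Lysine is made in fungi through aminoadipate. The 6 genes placed here are not all steps of that route. Beside lys-5, lys-6 and lys-7 they include hom-1, the homoserine dehydrogenase NCU03935, and NCU04118, which has no molecular function given. In wild type at S only lys-6, the homoaconitase, was raised, with a ratio of 3.09 (2.40 to 4.03). The other genes lay within the thresholds. This is 16.7% raised, beside 46.5% of all genes. lys-7, the homoisocitrate dehydrogenase, had 120.1, 163 and 144 RPKM at S in Δmak-1, Δmak-2 and wild type, against 288, 292 and 208 RPKM at A. All 3 of its S values were below all 3 A values, while lys-5, the homocitrate synthase, overlapped between the stages with 106 to 165 RPKM at S and 111 to 121 RPKM at A. The median ratio of the 6 genes in wild type was 1.24, and fell below 1 under each of the 3 scalings (0.706 to 0.840). That median covers more than the aminoadipate steps, of which lys-5 and lys-7 had wild type ratios of 1.37 and 0.694.

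For histidine the wild type median was 0.812. his-3, which carries 3 activities of the pathway in 1 protein, was lowered and had 8.38, 10.47 and 13.1 RPKM at S in Δmak-1, Δmak-2 and wild type, against 29.4, 30.1 and 33.98 RPKM at A. The ratio was 0.386 (0.306 to 0.485) in wild type. his-6, the imidazole glycerol phosphate synthase, had 33.9, 40.8 and 59.9 RPKM at S in Δmak-1, Δmak-2 and wild type, against 103, 213 and 111 RPKM at A. The stages did not overlap for either gene, although the his-6 ratio of 0.541 in wild type missed the threshold. Of all genes tested, 10% had all 3 S libraries below all 3 A libraries. NCU01300, the imidazole glycerol phosphate dehydratase, was raised with a ratio of 2.11, a call lost under all 3 scalings. his-2, which begins the pathway, had a ratio of 1.60, below the 1.86 of the median gene. In the values as deposited, the ratios of this pathway lay on both sides of 1.

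The entry into the aromatic pathway showed a change in which of its enzymes was transcribed most. DAHP synthase joins erythrose phosphate and phosphoenolpyruvate, and N. crassa has 3 forms that are inhibited by tyrosine (aro-6), phenylalanine (aro-7) or tryptophan (aro-8). aro-6 had 81.1, 129.8 and 77.1 RPKM at S in Δmak-1, Δmak-2 and wild type, against 15.7, 19.6 and 11.8 RPKM at A. aro-8 had 72.8, 93.9 and 59.3 RPKM at S in the same order of strains, against 199, 210.1 and 193 RPKM at A. aro-7 had 26.2, 39.1 and 53.0 RPKM at S, against 66.8, 126 and 90.8 RPKM at A. For each of the 3 genes the S and A libraries did not overlap. Of all genes tested, 47.7% had all 3 S libraries above all 3 A libraries, and 10% had them below.

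In wild type aro-6 was raised 6.53-fold (4.59 to 9.56), aro-8 was lowered to a ratio of 0.307 (0.267 to 0.353), and aro-7 had a ratio of 0.584 (0.481 to 0.706). The share of aro-6 in the summed RPKM of the 3 genes was 45.0%, 49.4% and 40.7% at S in Δmak-1, Δmak-2 and wild type, against 5.56%, 5.51% and 3.99% at A. These shares do not depend on the scaling between libraries. aro-8 made up 65.3% of the sum in wild type at A. aro-6 and aro-8 passed the thresholds in all 3 strains.

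**Figure D3:**
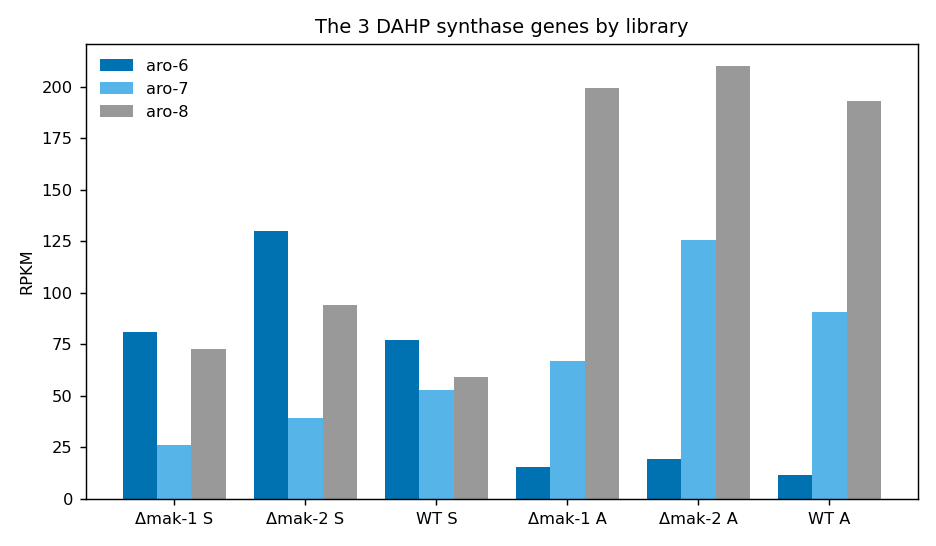
RPKM of the DAHP synthase genes aro-6, aro-7 and aro-8 in the 6 libraries, each bar 1 library without replicate. aro-6 is the highest of the 3 in the protoperithecial libraries (77.1 to 129.8 RPKM) and the lowest in the vegetative libraries (11.8 to 19.6 RPKM).

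Some of the later steps moved less. Chorismate synthase aro-3 had between 69.3 and 79.2 RPKM at S and between 79.5 and 86.3 RPKM at A, and chorismate mutase NCU07725 overlapped between the stages. trp-2, the anthranilate synthase, had 77.2, 78.7 and 98.7 RPKM at S in Δmak-1, Δmak-2 and wild type, against 135, 149 and 155 RPKM at A. Its wild type ratio was 0.638 (0.571 to 0.714). NCU00468, matched to prephenate dehydrogenase of the tyrosine branch, was raised 2.41-fold in wild type, and reached 102 RPKM in Δmak-1 at S. qa-2 was raised 3.22-fold on 45 reads at S and 11 reads at A. aro-1, the fused enzyme of the middle of the shikimate pathway, had at most 2.75 RPKM and was not tested.

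Of the 32 tRNA charging genes tested in wild type, 14 were raised and 1 was lowered, or 43.8% and 3.13%, beside 46.5% and 10.3% of all genes. Their median ratio of 1.90 lay at 1.02 relative to the median gene, and 5 of the 14 kept their call under all 3 scalings. The highest ratios were 5.72 for NCU06866 (3.37 to 10.3), 5.11 for cyt-18, 4.11 for the tyrosyl-tRNA synthetase NCU07755, 3.86 for the alanyl-tRNA synthetase NCU02566 and 3.51 for NCU06914, matched to a mitochondrial histidyl-tRNA synthetase. cyt-18, the mitochondrial tyrosyl-tRNA synthetase that also helps group I introns to splice, had 20.2, 19.2 and 20.5 RPKM at S in Δmak-1, Δmak-2 and wild type, against 11.999, 5.03 and 4.02 RPKM at A. The S levels were nearly equal among the strains, and the A level in Δmak-1 stood between both stages of the others.

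NCU00915, matched to aspartyl-tRNA synthetase, went the other way. It had 40.6, 52.5 and 65.0 RPKM at S in Δmak-1, Δmak-2 and wild type, against 219, 192 and 281 RPKM at A, where it was the synthetase with the highest level in wild type. The wild type ratio was 0.232 (0.207 to 0.258). For leucine, the mitochondrial synthetase leu-5 had a ratio of 2.92 (2.18 to 3.95) and the cytosolic synthetase leu-6 a ratio of 1.55 (1.29 to 1.86). The tryptophanyl-tRNA synthetase trp-5 was raised 2.37-fold. The threonyl-tRNA synthetase matched as mitochondrial, NCU03129, had a ratio of 1.31, against 2.03 for its counterpart NCU02380, so that mitochondrial synthetases were not always those with the larger ratio.

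**Figure D4:**
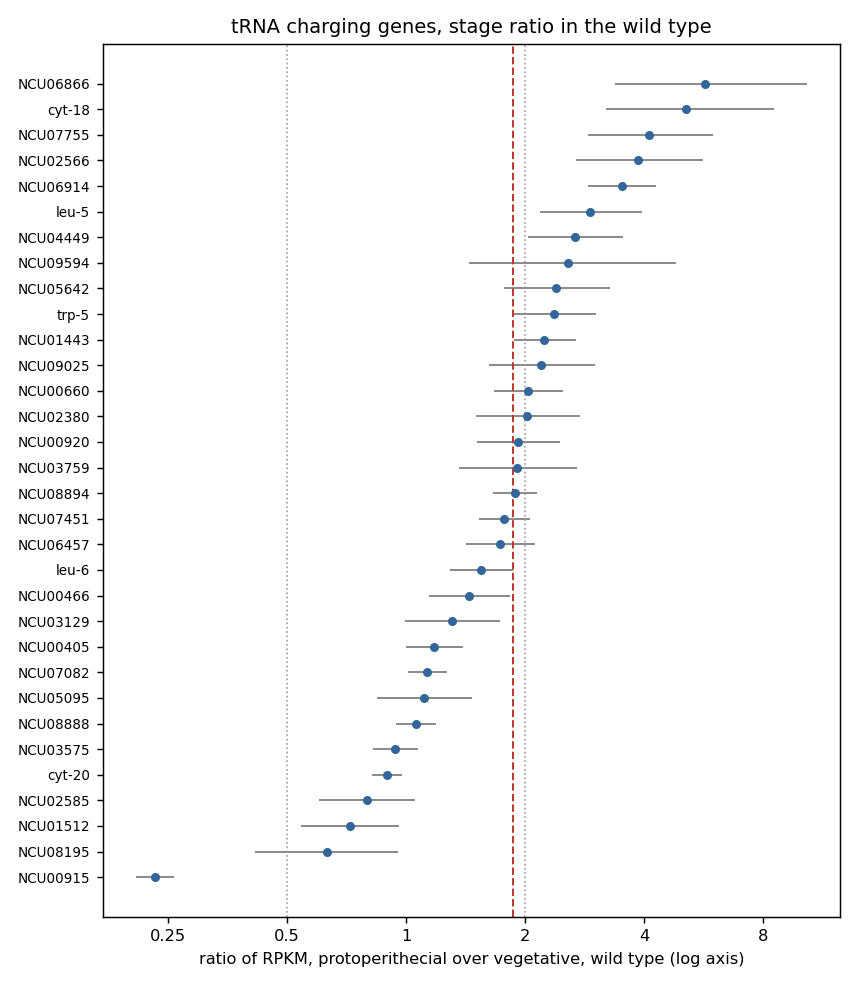
Ratio of RPKM, protoperithecial over vegetative, in wild type on a log axis for the 32 tRNA charging genes tested, with exact 95% counting intervals as bars. Dotted lines mark the 2-fold thresholds and the dashed red line the median of all genes (1.86). NCU00915 at 0.232 stands apart below the others, and NCU06866 at 5.72 is the highest.

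Between the stages of the Δmak-1 mutant, 12 of 70 genes were raised and 12 lowered, beside 32.6% raised and 9.48% lowered of all genes. The median ratio was 0.987, which is 0.694 relative to the median gene of that comparison. With the median of ratios the counts were 5 raised and 24 lowered, with the upper quartile 8 and 18, and with beta-tubulin 12 and 11. In the Δmak-2 mutant, 21 of 71 were raised and 10 lowered, beside 41.4% and 9.41% of all genes, with a median of 1.27 or 0.754 relative to the median gene. With the scalings in the same order the counts were 9 raised and 22 lowered, 10 and 18, and 7 and 22.

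The 3 stage comparisons share no library. In all 3 strains 10 of 69 tested genes were raised, 14.5% beside 22.1% of all genes, and 4 were lowered, 5.80% beside 5.02%. The raised genes were nic-7, NCU04657, aro-6, tca-17, NCU00468, NCU01177, NCU05586, qa-2, NCU06866 and NCU09594, of which NCU01177 and NCU05586 belong to the cysteine and methionine map. The lowered genes were NCU00915, aro-8, his-3 and NCU00147. By the order of levels alone, all 3 S libraries lay above all 3 A libraries for 31 of 72 genes, against 47.7% of all genes, and below them for 14 of 72 genes, or 19.4%, against 10% of all genes. Of these 14, 4 belonged to the aromatic map (aro-3, aro-7, aro-8 and trp-2), 2 each to lysine and histidine and 4 to tRNA charging. These counts moved with the scaling between libraries. The genes raised in all 3 strains numbered 3 with the median of ratios, 4 with the upper quartile and 5 with beta-tubulin, and nic-7, NCU04657 and aro-6 were raised under all 3, while the lowered genes numbered 11, 11 and 8 and included the 4 named. All 3 S libraries lay above all 3 A libraries for 11, 16 and 16 genes and below them for 27, 24 and 18. None of these shares was tested.

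Several genes had lower stage ratios in both mutants than in wild type. So did the median of all genes, at 1.42 in Δmak-1 and 1.69 in Δmak-2, against 1.86 in wild type. The share of all genes with lower ratios in both mutants was not counted. met-5 had 32.9 RPKM at S and 81.6 RPKM at A in Δmak-1, a ratio of 0.403 (0.337 to 0.480), and 36.9 and 99.3 RPKM in Δmak-2, a ratio of 0.372 (0.312 to 0.442), while its wild type ratio was 1.095. his-6 had ratios of 0.331 in Δmak-1 and 0.192 in Δmak-2, against 0.541 in wild type. aro-7 had 0.392 and 0.311 in the mutants, against 0.584 in wild type. NCU04118, placed under lysine with no molecular function given, had 0.312 and 0.301, against 0.572. leu-1 and leu-2 were raised in Δmak-2, with ratios of 2.35 and 2.56, and had ratios of 1.37 and 0.796 in Δmak-1, but both calls in Δmak-2 were lost under all 3 scalings. These differences between strains were not tested.

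At the protoperithecial stage the genes stood mostly lower in both mutants than in wild type, and few passed the threshold. In Δmak-1 none of 71 tested genes was raised and 7 were lowered, beside 11% raised and 8.35% lowered of all genes. The median ratio was 0.832, against 1.05 for all genes, and 52 of 71 genes (73.2%) were below 1, against 45.5% of all genes. The median of the same genes stayed between 0.773 and 0.866 under the 3 scalings, and the counts were 0 raised and 9 lowered with the median of ratios and 1 and 5 with beta-tubulin. In Δmak-2, 2 of 71 were raised and 3 lowered, beside 8.56% and 10.7% of all genes, with a median of 0.868 against 0.998 for all genes and 45 genes (63.4%) below 1 against 50.2%. Both mutants are set against the same wild type library, so they are not independent of each other.

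**Figure D5:**
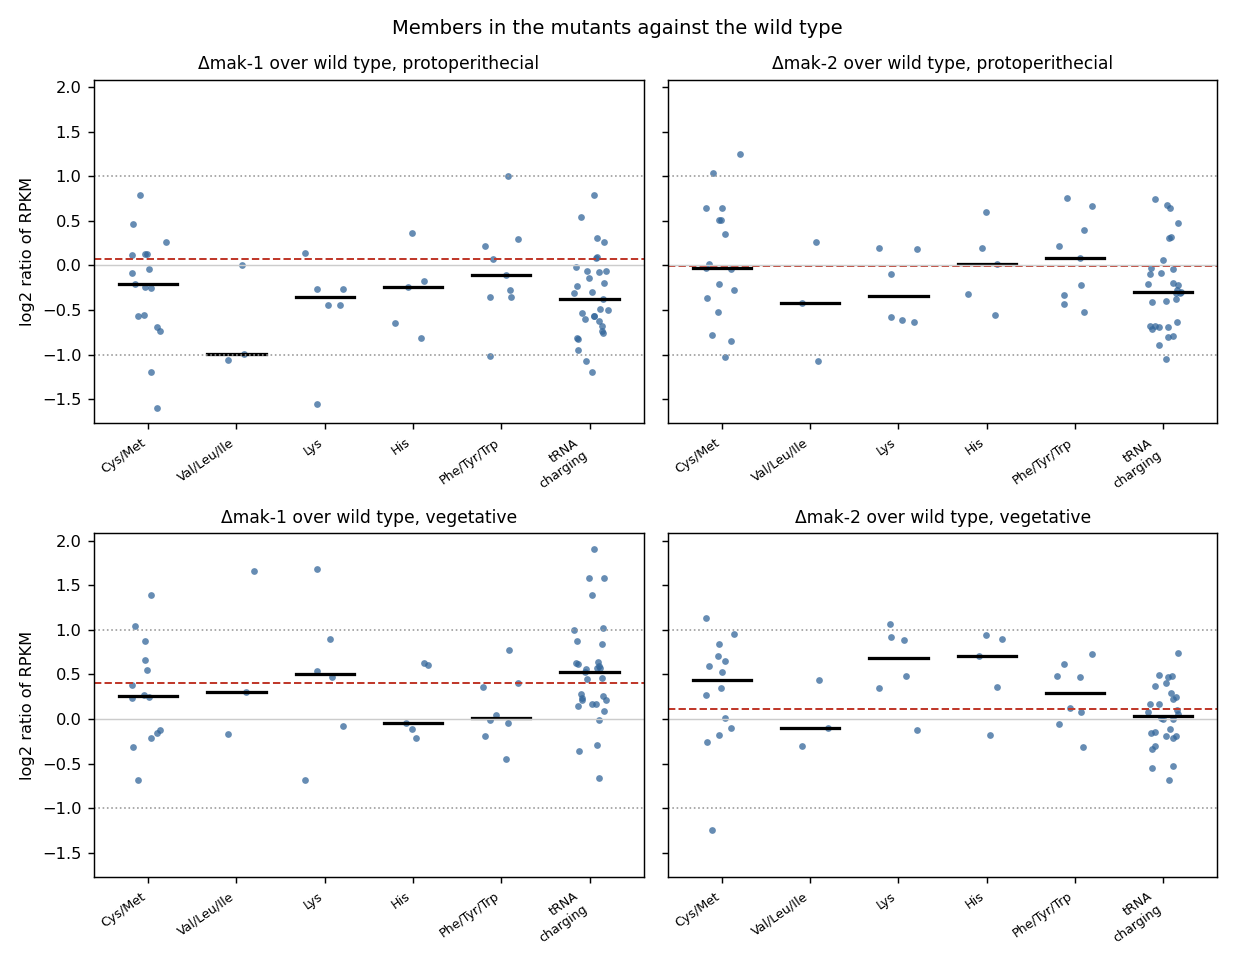
Log2 ratio of RPKM, mutant over wild type, for the tested genes of each pathway (points) with the pathway median (black bar), at the protoperithecial stage (top) and the vegetative stage (bottom), for Δmak-1 (left) and Δmak-2 (right). The dashed red line is the median of all genes and the dotted lines the 2-fold thresholds. The tRNA charging median lies below that of all genes at the protoperithecial stage in both mutants, and above it in Δmak-1 at the vegetative stage.

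In Δmak-1 at S the lowest ratio was that of the adenosylhomocysteinase gene cys-18, with 135 RPKM against 407 RPKM in wild type, a ratio of 0.331 (0.307 to 0.357). In Δmak-2 it had 226 RPKM and a ratio of 0.555 (0.520 to 0.593), past no threshold. eth-1, which makes the methyl donor of the same cycle, had ratios of 0.865 and 1.01 in the mutants. met-5 was lowered in both mutants, with ratios of 0.436 (0.363 to 0.521) in Δmak-1 and 0.489 (0.409 to 0.584) in Δmak-2. Cystathionine beta-synthase NCU08216 was raised in Δmak-2, with 51.7 RPKM against 21.8 RPKM in wild type, a ratio of 2.37 (1.94 to 2.91). In Δmak-1 it had 26.1 RPKM and a ratio of 1.20. NCU09264 passed the upper threshold in Δmak-2 on 48 reads against 23 reads in wild type.

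The leucine genes were lowered at one step each. leu-1 had 139 RPKM in Δmak-1 against 289 RPKM in wild type, a ratio of 0.480 (0.433 to 0.532) that passed no threshold with scaling by beta-tubulin, and 0.748 in Δmak-2. leu-2 had 55.8 RPKM in Δmak-2 against 117 RPKM in wild type, a ratio of 0.478 (0.405 to 0.562), and in Δmak-1 its ratio of 0.503 (0.429 to 0.588) fell just outside the threshold. leu-4 had ratios of 1.002 and 1.20. In the aromatic group aro-7 was lowered in Δmak-1 with a ratio of 0.495 (0.386 to 0.631), at the edge of the threshold. NCU00468 had a ratio of 1.99 (1.70 to 2.35) there, just short of a call, and its call would be made with scaling by beta-tubulin. aro-6 and aro-8 had ratios of 1.68 and 1.58 in Δmak-2.

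Of 31 tRNA charging genes, 25 (80.6%) were below 1 in Δmak-1 at S and 24 (77.4%) in Δmak-2, beside 45.5% and 50.2% of all genes, with medians of 0.772 and 0.815. These medians were 0.737 and 0.817 relative to the median gene. The 2 lowered in Δmak-1 were NCU07082, with 33.02 RPKM against 75.5 RPKM in wild type (0.438, 0.385 to 0.496), and NCU05095, annotated as a phenylalanyl-tRNA synthetase, with 9.11 RPKM against 19.2 RPKM (0.474, 0.349 to 0.639). NCU07082 was also lowered in Δmak-2, with 36.4 RPKM and a ratio of 0.482 (0.425 to 0.547). Against the direction of most, leu-5 had ratios of 1.46 in Δmak-1 and 1.67 in Δmak-2 while leu-6 had 0.674 and 0.618. cyt-18 had 0.986 and 0.936.

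The 82 genes took 0.518%, 0.579% and 0.710% of the summed RPKM at S in Δmak-1, Δmak-2 and wild type. At A the shares were 0.585%, 0.489% and 0.444%. The cysteine and methionine genes held 2539 RPKM of the 5845 RPKM in wild type at S, of which tca-17 alone held 983 RPKM.

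At the vegetative stage 71.6% of the tested genes were above 1 in Δmak-1 against wild type, beside 71.4% of all genes. Of 67 tested genes 10 were raised and 0 were lowered, beside 18.5% raised and 6.77% lowered of all genes. The median ratio was 1.28, against 1.33 for all genes. Scaling moved this split to 5 raised and 3 lowered with the median of ratios, 7 and 3 with the upper quartile and 5 and 4 with beta-tubulin. NCU07082, lys-6, leu-2, leu-5 and cyt-18 kept their call under all 3.

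leu-2 had 73.8 RPKM in Δmak-1 at A against 23.3 RPKM in wild type, a ratio of 3.16 (2.43 to 4.16), and lys-6 had 39.7 RPKM against 12.4 RPKM, a ratio of 3.20 (2.48 to 4.17). Both genes encode hydratases of the same enzyme family, one for leucine and one for lysine. leu-1, which follows leu-2, had a ratio of 0.894, and lys-7, which follows lys-6, had 1.38. NCU08216 had 77.2 RPKM against 29.5 RPKM, a ratio of 2.62 (2.18 to 3.17), and nic-7 had 27.3 RPKM against 13.2 RPKM, a ratio of 2.07 (1.42 to 3.07).

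Of the 31 tRNA charging genes tested in that comparison 27 (87.1%) were above 1, beside 71.4% of all genes, and 6 (19.4%) were raised, beside 18.5% of all genes, with a median of 1.44 that lay at 1.09 relative to the median gene and at 0.969 with scaling by beta-tubulin. The mitochondrial synthetases leu-5 and cyt-18 had ratios of 2.996 (2.25 to 4.05) and 2.99 (1.83 to 5.09), the last on 81 reads against 21 reads. NCU03129, matched to a mitochondrial threonyl-tRNA synthetase, had a ratio of 2.01, a call lost under all 3 scalings. NCU06914, matched to a mitochondrial histidyl-tRNA synthetase, had 1.48, and the cytosolic leu-6 had 1.54. NCU07082 had 249.8 RPKM in Δmak-1 against 66.7 RPKM in wild type, a ratio of 3.75 (3.41 to 4.12), and 88.4 RPKM in Δmak-2. It was the gene with the largest ratio of these at A and one of the lowered genes at S.

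In Δmak-2 at A, 2 of 64 tested genes were raised and 1 was lowered, beside 7.26% and 6.41% of all genes, and the median ratio was 1.15 against 1.08. The raised genes were NCU00147, with 144 RPKM against 65.8 RPKM in wild type (2.19, 1.71 to 2.82), and the homoserine dehydrogenase NCU03935, with 255 RPKM against 121 RPKM (2.10, 1.85 to 2.39). The lowered gene was tca-17, with 119 RPKM against 281 RPKM (0.423, 0.371 to 0.483). his-6 had 213 RPKM against 111 RPKM in wild type, a ratio of 1.92 (1.73 to 2.15) just inside the threshold, and the 5 genes of histidine synthesis had a median of 1.64. The counts were 2 raised and 3 lowered with the median of ratios and with the upper quartile, and 10 and 2 with beta-tubulin. The call of NCU03935 was lost with the median of ratios and with the upper quartile, that of tca-17 was lost with beta-tubulin, and that of NCU00147 was kept under all 3.

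Of 8 listed regulators known for these pathways 6 were found in the table. In wild type at S against A, 0 of the 6 were raised and 1 (16.7%) was lowered, beside 46.5% and 10.3% of all genes. In Δmak-1 against wild type at A, 1 of the 6 was raised, beside 18.5% of all genes. cpc-1 had 1003, 1393 and 915 RPKM at S in Δmak-1, Δmak-2 and wild type and 1195, 859 and 1048 RPKM at A, and its wild type ratio was 0.873 (0.840 to 0.908). cpc-3, the sensor kinase counterpart of yeast Gcn2, had 7.72, 7.44 and 6.13 RPKM at S, against 11.03, 17.9 and 16.9 RPKM at A, and was lowered in wild type with a ratio of 0.363 (0.284 to 0.462). cys-3, the activator of sulfur uptake and use, had 129.8, 99.4 and 131 RPKM at S in Δmak-1, Δmak-2 and wild type, against 431, 134 and 123 RPKM at A. The Δmak-1 library at A stood apart from the other 5, with a ratio of 3.50 (3.10 to 3.96) to wild type. Of the arginine and proline genes 12 of 13 listed were found, and 3 of 10 tested were raised and 0 lowered in wild type at S, beside 46.5% and 10.3% of all genes, with a median ratio of 1.02 against 1.86 for all genes. The 3 raised were arg-2, arg-6 and arg-13, with ratios of 2.47, 2.30 and 2.62. The 3 scalings divide wild type stage ratios by 1.47 to 1.75, which brings all 3 genes below the threshold of 2.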

How the data were processed

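Per the labels and the methods of the study, total RNA mixed from 3 repeats was sequenced single-end on an Illumina instrument. CASAVA 1.8 is named in the submitters' notes on processing. The authors deposited RPKM values per gene. Aligner, read counter and build were not stated. Columns of fold changes in the deposited table were not used. Reads were recovered from the RPKM steps where an entry was above 0 in 2 or more libraries, which succeeded for 8910 of 8913 (tolerance 3e-09 relative or 1e-06 absolute). Recovery and calls were tested on simulated data. Symbols came from RefSeq assembly NC12, to which 79 of the genes matched by locus tag, 2 by an old tag and 1 not.

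Genes and lists were chosen with earlier results of these data known. Named genes are those with the highest and lowest ratios in each comparison (minimum 50 reads in one of both libraries), the highest mean levels, the extremes of each pathway, genes with a symbol, and called genes. Alternatives were 3 scalings, fold thresholds of 1.5 and 3, RPKM minimums of 1 and 20, 1 RPKM added, no exclusion by pathway, and the whole counting interval past the threshold. The work was done in Python 3.11.15 (scipy 1.17.1, numpy 2.4.6, pandas 2.3.3), with figures drawn by matplotlib 3.10.9. Promoter motifs were not analysed here.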

Additional observations from a re-analysis of the deposited data

Results flagged for a closer look

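NCU07082, placed under tRNA charging, moved in opposite directions in Δmak-1 at the 2 stages. The ratio of Δmak-1 to wild type was 0.438 at the protoperithecial stage (33.02 RPKM against 75.5 RPKM) and 3.75 at the vegetative stage (249.8 RPKM against 66.7 RPKM). The difference between the stages was not tested, since there is 1 library per condition.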

How the results depend on the processing

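No called gene changed direction under the alternatives run. The values checked cover list medians and only a part of the single called genes. Of these values, 170 stayed the same, as a call kept or a median not moved, 57 lost the call and 6 medians moved. Over all called genes more calls were lost. Of the 30 genes raised between the wild type stages, 11 kept their call with the median of ratios. At a fold of 3, 15 kept it, and 17 with the whole counting interval past the threshold. Of the counts of called genes under the alternatives, 80 stayed within 1.5 times of the main count and 60 moved further, as follows. Between the wild type stages, 30 raised became 11, 13 and 15 with the median of ratios, the upper quartile and beta-tubulin, 15 at a fold of 3 and 17 with the whole counting interval past the threshold, and 4 lowered became 16, 15 and 12 with these scalings, 10 at a fold of 1.5 and 2 at a fold of 3. For Δmak-1 at S, 0 raised became 1 with beta-tubulin, 3 at a fold of 1.5 and 1 at an RPKM minimum of 1, and 7 lowered became 20 at a fold of 1.5, 1 at a fold of 3 and 2 with the interval. For Δmak-2 at S, 2 raised became 10 at a fold of 1.5, 0 at a fold of 3, 1 at an RPKM minimum of 20, 1 with 1 RPKM added and 0 with the interval, and 3 lowered became 16, 0 and 0 at a fold of 1.5, at a fold of 3 and with the interval.

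For Δmak-1 at A, 10 raised became 5 with the median of ratios, 5 with beta-tubulin, 22 at a fold of 1.5, 3 at a fold of 3 and 5 with the interval, and 0 lowered became 3, 3 and 4 with the scalings and 3 at a fold of 1.5. For Δmak-2 at A, 2 raised became 10 with beta-tubulin, 15 at a fold of 1.5, 0 at a fold of 3, 4 at an RPKM minimum of 1 and 0 with the interval, and 1 lowered became 3, 3 and 2 with the scalings, 2 at a fold of 1.5, 0 at a fold of 3 and 3 at an RPKM minimum of 1. Between the Δmak-1 stages, 12 raised became 5 with the median of ratios, 5 at a fold of 3 and 6 with the interval, and 12 lowered became 24 with the median of ratios, 21 at a fold of 1.5 and 5 at a fold of 3. Between the Δmak-2 stages, 21 raised became 9, 10 and 7 with the scalings, 32 at a fold of 1.5, 10 at a fold of 3 and 12 with the interval, and 10 lowered became 22, 18 and 22 with the scalings and 4 at a fold of 3.

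In a comparison chosen after seeing the data, the 10 genes raised between the stages in all 3 strains became 3, 4 and 5 with the median of ratios, the upper quartile and beta-tubulin, and the 4 lowered became 11, 11 and 8. The 31 genes with all 3 S libraries above all 3 A libraries became 11, 16 and 16, and the 14 below became 27 and 24 with the first and second scaling.

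The scalings divide by a factor that differs between libraries, which moves every ratio of a comparison by the same factor, 1.75 between the wild type stages with the median of ratios. Uncalled ratios between 1 and this factor, such as 1.37 for lys-5, fall below 1 there. The median of the 71 tested genes between the wild type stages, 1.64, also falls below 1 there. It stays above 1 with the upper quartile and with beta-tubulin. No paired analysis was possible because each condition has 1 library and the labels give no replicate numbers that groups share, so no library was left out. A fit of the stage over the 3 strains as pairs, which would treat the strains as replicates of a stage, was not run. The planned search of promoter motifs was not run, since no promoter sequences were used here. Genes with few reads, such as NCU09264 with 2 reads in wild type at A, carry wide counting intervals.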

Other observations

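4 of 6 listed sulfate assimilation genes, which supply the sulfide for cysteine, were found in the table. In wild type at S against A, cys-9 was raised with a ratio of 6.19 (exact 95% counting interval 2.81 to 16.1) on 55 reads at S and 7 reads at A, and cys-2 was lowered with a ratio of 0.404 (0.362 to 0.451). cys-11, the ATP sulfurylase, had 250.3, 252 and 183 RPKM at S in Δmak-1, Δmak-2 and wild type, against 213, 149 and 139 RPKM at A. arg-2, the small subunit of the carbamoyl phosphate synthetase of arginine synthesis, had 108, 109 and 196 RPKM at S in Δmak-1, Δmak-2 and wild type, against 84.9, 96.5 and 79.2 RPKM at A, a wild type stage ratio of 2.47 (2.18 to 2.80). In wild type at S it stood above the other 5 libraries, and each of the 3 scalings brings its wild type stage ratio below 2.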
